A study of Mus musculus with 24 samples.

Results

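The genes of fatty acid and cholesterol synthesis were followed in GFP-positive cells sorted from the adult mouse hippocampus with and without Notch2, a Notch receptor. The set was fixed by symbol and holds 35 of the 48321 gene symbols counted, 15 in the fatty acid branch and 20 in the sterol branch. The conditional knockout (CKO) animals carried Hes5::CreERT2, Notch2 flox/flox and Rosa26R-CAG::GFP, and the wild-type (WT) animals carried Hes5::CreERT2, Notch2 wt/wt and the same reporter, all C57BL/6. Both genotypes therefore carry the tamoxifen-inducible Cre driven from Hes5, a gene of neural stem cells and related glia, and both received tamoxifen for 5 days with collection after a chase of 1 day. Sorted cells of several animals were pooled, with 3 pools of each genotype, 2 libraries per pool and 2 lanes per library, read as bulk RNA by Smart-Seq2 and Nextera XT. The sample descriptions carry a tag of 19K, 4K and 9K in CKO pools 1, 2 and 3, and of 20K, 12K and 2K in WT pools 1, 2 and 3. What the tag means is not given, and it was not used. The labels give neither the number of animals in a pool nor whether pools had animals in common. The p-values therefore speak of the scatter among these pools, part of which may be technical.

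Reads in genes numbered 40366579 to 53984963 per pool. Notch2 had 65.3, 116 and 121 CPM (reads of the gene scaled to the depth of each pool) in CKO pools 1, 2 and 3, against 99.3, 146 and 303 CPM in WT pools 1, 2 and 3, so the genotypes overlapped at the level of the whole gene (log2 fold change, CKO over WT, -0.86, SE 0.45; edgeR adjusted p = 0.790). A gene-level count also takes in exons that stay after recombination and checks the deletion only in part. The sorted cells were labelled as stem cells, yet markers of several glial types were abundant. All 10 astrocyte markers, all 10 markers of mature oligodendrocytes and all 8 of oligodendrocyte precursors stood at 1 CPM or more in every pool, as did 7 of 8 radial glia markers. The summed level of the oligodendrocyte markers was 3234 to 5655 CPM in CKO pools and 2412 to 6470 CPM in WT pools. In bulk samples such as these, fewer cells of a type and less RNA per cell cannot be told apart.

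Cells build fatty acids in the cytosol from acetyl-CoA. Citrate is cleaved to acetyl-CoA, acetyl-CoA carboxylase turns it into malonyl-CoA, fatty acid synthase joins the units into palmitate, and elongases and desaturases shape the product. Sterols start from the same acetyl-CoA and run through mevalonate, squalene and lanosterol to cholesterol. The transcription factor encoded by Srebf1 chiefly drives the first branch and that encoded by Srebf2 the second, and Insig1 holds both back when sterols are plentiful. In the hippocampus, fatty acid synthase is needed for stem cells to divide, Thrsp (Spot14) marks slowly dividing stem cells, and glia supply much of the cholesterol of the brain.

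None of the 35 genes passed the test between genotypes. All 35 were deep enough to be tested, and 34 averaged at least 10 CPM. With edgeR's quasi-likelihood test, adjusted over all 21477 genes, 0 of 35 passed an adjusted p under 0.05, where 0% of all genes did. DESeq2 also passed 0 of 35 (0.584% of all genes). At an unadjusted edgeR p under 0.05 there was 1 member, Scd1, higher in CKO, which is 1 of 35 where 5.91% of all genes were called, with 3.01% of all genes higher in CKO and 2.9% lower. DESeq2 gave the same single gene at an unadjusted p under 0.05, where it called 2003 of 21227 genes. The CKO and WT pools did not overlap for 5 members, 3 higher in CKO (Scd1, Hmgcs1 and Cyp51) and 2 lower (Mvd and Fdps). That is 14.3% of the members, near the 15.8% of all genes tested (7.67% higher in CKO and 8.17% lower), so the number of such genes is not a result about these pathways. The log2 fold changes of the members ran between -0.69 and 0.90, with 31 of 35 within 0.5 of 0 and a median standard error (SE) of 0.32.

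**Figure D1:**
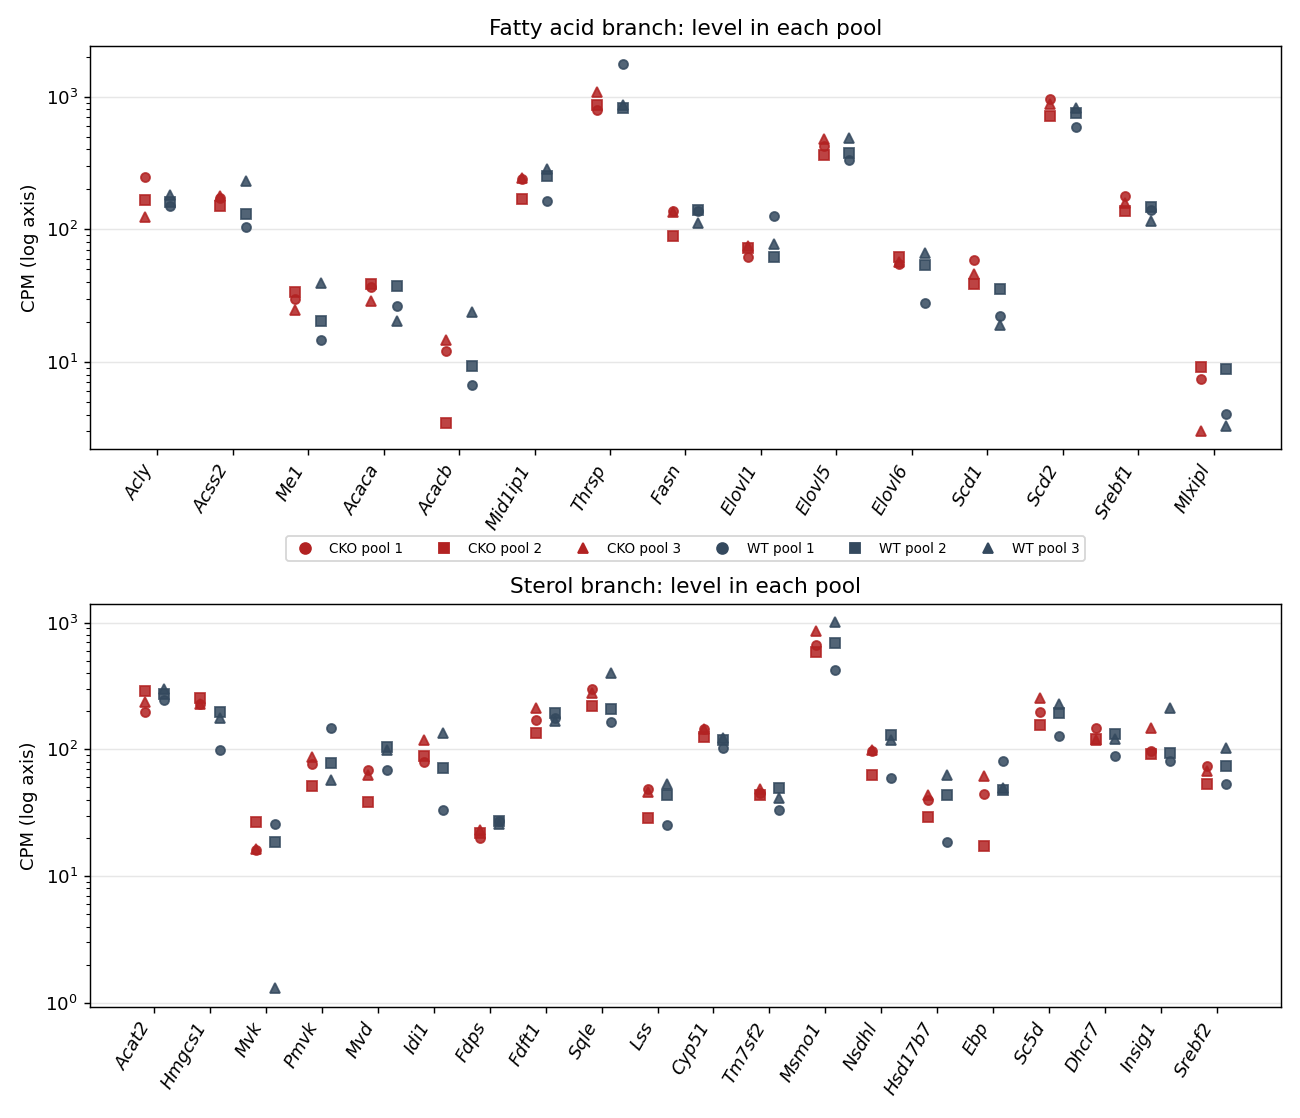
Level of each gene in CPM (log axis) in the 3 CKO pools (red, left of each pair) and the 3 WT pools (dark blue, right), with 1 marker shape per pool number. Most genes show mixed red and blue points, Thrsp, Scd2, Msmo1 and Elovl5 lie highest, and Mvk in WT pool 3 stands alone at 1.30 CPM.

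Single genes of both branches stood at very different levels. Per kilobase of exon (CPM divided by the length of all annotated exons joined), Thrsp, a small nuclear and cytosolic regulator of lipogenesis, was the most abundant of the 35. It stood at 363, 392 and 495 CPM per kb in the CKO pools, against 801, 373 and 392 CPM per kb in the WT pools. Averaged over all pools it ranked 89 among the tested genes with a length, in the top 0.431%. The brain desaturase Scd2 followed at 131 to 176 CPM per kb in CKO and 108 to 152 in WT, then the elongase Elovl5, the sterol methyl oxidase Msmo1, the carboxylase modulator Mid1ip1 and the thiolase Acat2. In all, 15 of 35 members were in the top 10% per kb. At the other end were the transcription factor Mlxipl and both carboxylases, Acaca and Acacb, each under 3 CPM per kb in every pool. The joined length counts every annotated exon, used in these cells or not, and was 17074 bases for Acaca. It can therefore place genes with many annotated exons too low. Neighbours in this order such as Elovl5 and Msmo1 (104 to 135 against 95.3 to 139 CPM per kb in CKO pools) did not differ beyond their spread.

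Acly, Acss2 and Me1 supply substrate to the fatty acid branch, and each overlapped between genotypes. Acly, the ATP citrate lyase that makes cytosolic acetyl-CoA, had 247, 165 and 124 CPM in CKO pools 1, 2 and 3, against 149, 160 and 181 CPM in the WT pools. The CKO pools held both the highest and the lowest value (log2 fold change 0.13, SE 0.29, edgeR adjusted p = 0.922), and without CKO pool 1 the value was -0.17. Acss2, which makes acetyl-CoA from acetate, and Me1, the malic enzyme that yields NADPH, differed by 0.10 (SE 0.32) and 0.26 (SE 0.43) on the log2 scale. Both were highest in WT pool 3 and lowest in WT pool 1, so the WT pools enclosed the CKO pools.

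Acetyl-CoA carboxylase makes the committed intermediate, malonyl-CoA. Acaca, the cytosolic form, had 36.4, 38.4 and 28.9 CPM in the CKO pools, against 26.4, 37.1 and 20.5 CPM in the WT pools. These ranges overlapped (log2 fold change 0.31, SE 0.34, edgeR adjusted p = 0.846). Acacb, the form at the mitochondrial surface, was scarce and uneven, at 3.45 to 14.5 CPM in CKO and 6.75 to 23.8 CPM in WT. Of the carboxylase modulators, Mid1ip1, which promotes polymerisation of the enzyme, had 170 to 244 CPM in CKO and 163 to 283 CPM in WT. Thrsp, its relative, had 795, 858 and 1083 CPM in the CKO pools, against 1754, 815 and 858 CPM in the WT pools. WT pool 1 alone was high, and the genotype difference (-0.32 on the log2 scale, SE 0.33, adjusted p = 0.842 in edgeR) became 0.14 without that pool.

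Fasn, the synthase itself, had 138, 89.2 and 136 CPM in CKO pools, against 137, 139 and 112 CPM in WT pools (log2 fold change -0.10, SE 0.25, edgeR adjusted p = 0.930). Only CKO pool 2 was below the WT range. Among the elongases, Elovl1 makes very long saturated chains, Elovl5 extends polyunsaturated chains and Elovl6 extends palmitate. Their log2 fold changes were -0.34 (SE 0.31), 0.08 (SE 0.22) and 0.23 (SE 0.35). Elovl1 was set apart by WT pool 1 at 125 CPM, against 61.4 to 74.5 CPM in CKO and 62.0 and 77.0 CPM in the other WT pools, and its value was 0.01 without that pool.

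Scd1, a stearoyl-CoA desaturase that puts the double bond into oleate and palmitoleate (chromosome 19, 44394455 to 44407879, minus strand, GRCm38), was the member with the smallest p. It had 59.0, 38.5 and 45.6 CPM in CKO pools 1, 2 and 3, against 22.2, 35.5 and 18.97 CPM in WT pools 1, 2 and 3. Every CKO pool was above every WT pool, though CKO pool 2 and WT pool 2 were close. The means were 47.7 ± 10.4 CPM in CKO and 25.6 ± 8.79 CPM in WT (SD, n = 3 pools each), a 1.87-fold difference. Its log2 fold change, 0.90 with an SE of 0.36, missed the threshold once edgeR's p of 0.0381 was adjusted to 0.790. An exact two-sided permutation test gave p = 0.1, the smallest value that 3 against 3 pools allow. It was 0.93 in library 1 and 0.78 in library 2, and 0.72 to 1.27 when any 1 pool was left out. Its neighbour Scd2, the main desaturase of the brain, had 960, 718 and 880 CPM in the CKO pools, against 590, 756 and 828 CPM in the WT pools. These overlapped (log2 fold change 0.23, SE 0.21, edgeR adjusted p = 0.825). Per kb, Scd1 stood at 0.0687, 0.0598 and 0.0579 of Scd2 in CKO, against 0.0419, 0.0525 and 0.0256 in WT. Scd2 was therefore far more abundant than Scd1 in every pool.

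Srebf1, the factor named above for the fatty acid branch, had 178, 138 and 157 CPM in CKO pools, against 139, 148 and 116 CPM in WT pools. The ranges overlapped (log2 fold change 0.23, SE 0.21, edgeR adjusted p = 0.831), with 0.62 from library 1 alone and -0.03 from library 2 alone. Mlxipl, which encodes the carbohydrate-responsive factor ChREBP, was near the low end at 7.39, 9.13 and 3.03 CPM in CKO and 4.07, 8.80 and 3.26 CPM in WT.

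**Figure D2:**
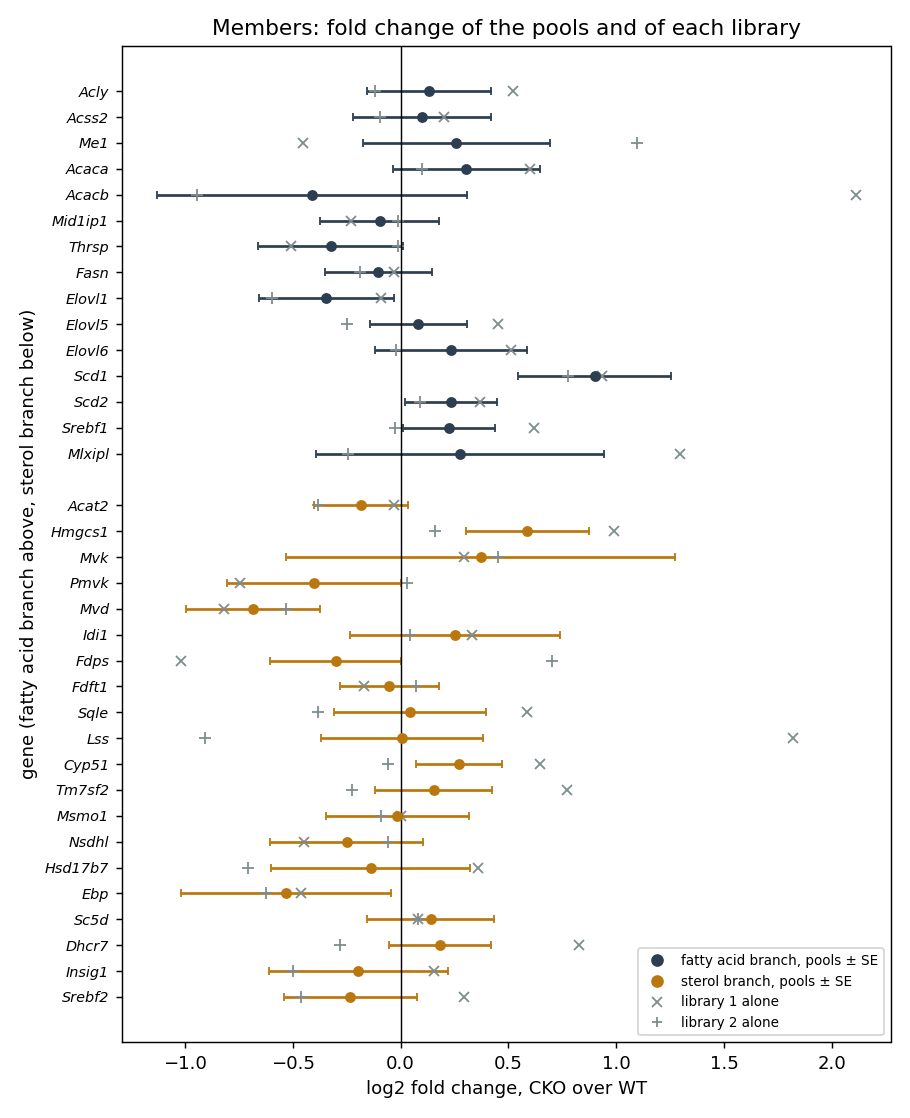
Log2 fold change, CKO over WT, of each gene in the pooled libraries (dots, with bars of ± 1 SE) and in library 1 (crosses) or library 2 (plus signs) alone, with the fatty acid branch above and the sterol branch below. Scd1 at 0.90 and Mvd at -0.69 have both libraries on the same side of 0, whereas Lss, at 0.01 in the pools, had 1.82 in library 1 and -0.90 in library 2.

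The sterol branch opens with Acat2, the cytosolic thiolase, and Hmgcs1, the HMG-CoA synthase. Acat2 had 196, 287 and 236 CPM in CKO, against 243, 276 and 298 CPM in WT (log2 fold change -0.18, SE 0.22). Hmgcs1 (chromosome 13, 119690379 to 119708260, plus strand) had 229, 253 and 229 CPM in CKO pools, against 98.5, 197 and 178 CPM in WT pools. All CKO pools were above all WT pools, and they were also closer to each other, at 237 ± 14.1 CPM in CKO and 158 ± 52.2 CPM in WT (SD, n = 3 each). Where pools do not overlap, the exact permutation p can only be 0.1, its smallest value here. A log2 fold change of 0.59 with an SE of 0.29 missed the threshold in edgeR (p = 0.0792, adjusted to 0.790). It was 0.99 in library 1 and 0.16 in library 2, and 0.35 without WT pool 1.

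Mvk, Pmvk, Mvd, Idi1 and Fdps carry mevalonate to farnesyl diphosphate. Mvd, the mevalonate diphosphate decarboxylase (chromosome 8, 122433601 to 122443422, minus strand), had 68.8, 38.6 and 62.3 CPM in the CKO pools, against 69.2, 105 and 99.1 CPM in the WT pools. The groups did not overlap, but CKO pool 1 and WT pool 1 were almost equal. As for Hmgcs1, the lack of overlap fixed the exact permutation p at 0.1. A log2 fold change of -0.69 with an SE of 0.31 missed the threshold in edgeR (p = 0.0622, adjusted to 0.790). It was -0.82 in library 1 and -0.53 in library 2, and -0.84 to -0.47 with 1 pool left out. Fdps, the farnesyl diphosphate synthase (chromosome 3, 89093588 to 89101959, minus strand), had 20.02, 21.9 and 23.0 CPM in CKO pools, against 27.0, 27.4 and 25.6 CPM in WT pools. These were narrow ranges that did not overlap in the sums, yet the libraries disagreed, with a log2 fold change of -1.02 in library 1 and 0.70 in library 2 (-0.30 in the pools, SE 0.30, edgeR adjusted p = 0.837).

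The kinases Mvk and Pmvk and the isomerase Idi1 overlapped between genotypes. Mvk had 16.0, 26.7 and 16.2 CPM in CKO, against 25.5, 18.7 and 1.30 CPM in WT, where WT pool 3 was low in both of its libraries (0.777 and 1.84 CPM). Its log2 fold change of 0.37 (SE 0.90) was -0.18 without that pool. Pmvk, at -0.40 (SE 0.40), was highest in WT pool 1 at 149 CPM and was at 0.10 without it. Idi1 spread widely among WT pools, with 78.8, 88.7 and 118 CPM in CKO, against 33.3, 71.2 and 135 CPM in WT. Fdps and Pmvk, and Elovl6 of the fatty acid branch, lie on chromosome 3, at 8.91, 8.54 and 31.4 Mb from Notch2.

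Squalene is made by Fdft1, oxidised by Sqle, a rate-limiting step, and closed into lanosterol by Lss. Sqle had 297, 220 and 278 CPM in CKO pools, against 165, 206 and 400 CPM in WT pools, so the WT pools enclosed all CKO pools (log2 fold change 0.04, SE 0.35, edgeR adjusted p = 0.980). Fdft1 was even, at 135 to 212 CPM in CKO and 168 to 193 CPM in WT (-0.05, SE 0.23). Lss had 48.3, 28.8 and 46.2 CPM in CKO, against 25.5, 43.9 and 53.4 CPM in WT (0.01, SE 0.38).

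A chain of enzymes turns lanosterol into cholesterol. Cyp51, the lanosterol demethylase (chromosome 5, 4081145 to 4104746, minus strand), had 144, 125 and 145 CPM in CKO pools, against 103, 118 and 122 CPM in WT pools. The groups did not overlap, though the gap between CKO pool 2 and WT pool 3 was small. Here too the lack of overlap fixed the exact permutation p at 0.1. A log2 fold change of 0.27 with an SE of 0.20 missed the threshold in edgeR (p = 0.219, adjusted to 0.806). It was 0.65 in library 1 and -0.06 in library 2. Msmo1, which removes the methyl groups at carbon 4 together with Nsdhl and Hsd17b7, had 661, 585 and 852 CPM in CKO, against 426, 686 and 1008 CPM in WT. Its log2 fold change was -0.01 (SE 0.33), and those of Nsdhl and Hsd17b7 were -0.25 (SE 0.35) and -0.14 (SE 0.46). Ebp, the sterol isomerase, was at -0.53 (SE 0.49), with CKO pool 2 lowest at 17.2 CPM and WT pool 1 highest at 80.8 CPM. Tm7sf2, a sterol reductase, and Sc5d, a desaturase, were at 0.15 (SE 0.27) and 0.14 (SE 0.30). Dhcr7, the reductase of the last step to cholesterol in one of the routes, had 146, 121 and 119 CPM in CKO, against 88.1, 132 and 121 CPM in WT (0.18, SE 0.24). Except for Cyp51, the pools of all these enzymes overlapped.

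The regulators of the sterol branch, Srebf2 and Insig1, overlapped between genotypes. Srebf2 had 74.3, 53.4 and 67.7 CPM in CKO pools, against 52.9, 73.8 and 103 CPM in WT pools (log2 fold change -0.23, SE 0.31, edgeR adjusted p = 0.867). Insig1 had 97.5, 91.5 and 149 CPM in CKO pools, against 81.3, 94.4 and 211 CPM in WT pools (-0.19, SE 0.41, edgeR adjusted p = 0.919). For both, WT pool 1 was the lowest and WT pool 3 the highest of the 6, and without WT pool 3 the values were 0.04 and 0.36.

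Promoter letters are shown because most members with a promoter share a feature there that the choice of genes did not use. RefSeq promoters (GRCm38.p6) were available for 30 members, 13 of the fatty acid and 17 of the sterol branch. None was available for Scd1, Scd2, Fdps, Fdft1 and Sqle. The CCAAT box, CCAAT on either strand, is bound by NF-Y, a partner of the sterol regulatory factors. In the 250 bases before a start site it was found in 9 of 13 fatty acid genes (69.2%) and 16 of 17 sterol genes (94.1%), where 37.5% of 27025 genes hold it. A gene was counted if any of its promoters matched, and the 30 members had 38 promoters. The 27025 genes were all those with a promoter, expressed in these cells or not. The members were all expressed, and the shares were not compared at like expression. The GC box, GGGCGG on either strand, was found in 7 of 13 (53.8%), 16 of 17 (94.1%) and 35.4% of all genes. The core of the sterol regulatory element was searched as TCACNCCAC on either strand and found in 1 of 13 fatty acid genes, Mlxipl, and 1 of 17 sterol genes, Hmgcs1 (1.22% of all genes). With an A added in front of these letters, 0 of 13 and 0 of 17 matched (0.226% of all genes). The letters GTGGGAA on either strand, bound by the Notch effector Rbpj, were found in 0 of 13 fatty acid and 3 of 17 sterol genes, Hmgcs1, Nsdhl and Sc5d (6.18% of all genes). A match is only a match of letters. A lack of one means only that these exact letters were absent from the 250 bases, so other forms of a site were not searched. Shown 5′ to 3′ on the strand of the gene are the CCAAT boxes of Fasn and of 5 sterol genes described above, with CCAAT, or ATTGG where it is on the other strand, in capitals. In Fasn, boxes on opposite strands overlap in one run of capitals. The stretches are chr11:120824570-120824638 (minus), chr13:119690274-119690342 (plus), chr8:122443423-122443481 (minus), chr10:76531511-76531579 (plus), chr9:42264301-42264356 (minus) and chr5:28071164-28071232 (plus), in the order of the lines.
Fasn: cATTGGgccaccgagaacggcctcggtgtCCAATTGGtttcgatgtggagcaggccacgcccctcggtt
Hmgcs1: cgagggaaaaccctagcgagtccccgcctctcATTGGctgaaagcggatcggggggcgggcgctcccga
Mvd: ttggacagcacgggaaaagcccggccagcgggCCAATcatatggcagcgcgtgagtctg
Lss: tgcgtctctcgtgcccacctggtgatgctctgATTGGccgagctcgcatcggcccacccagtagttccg
Sc5d: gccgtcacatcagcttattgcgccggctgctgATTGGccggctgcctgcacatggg
Insig1: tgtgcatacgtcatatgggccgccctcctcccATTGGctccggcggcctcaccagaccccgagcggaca

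Set side by side, the branches moved little between genotypes. In the fatty acid branch 10 of 15 log2 fold changes were above 0 (66.7%), with a median of 0.13, and in the sterol branch 9 of 20 (45%), with a median of -0.03. Across all genes tested, 47.2% were above 0 and the median was -0.06. The mean log2 CPM of the fatty acid branch was 6.69, 6.41 and 6.53 in CKO pools, against 6.23, 6.48 and 6.54 in WT pools. That of the sterol branch was 6.54, 6.28 and 6.68 in CKO pools, against 6.22, 6.60 and 6.60 in WT pools. Both overlapped, and the difference of the means, 0.13 for the fatty acid and 0.03 log2 units for the sterol branch, was smaller than the SD between pools of a genotype (0.14 in CKO and 0.16 in WT, and 0.21 in CKO and 0.22 in WT). The fatty acid branch minus the sterol branch was 0.15, 0.13 and -0.15 log2 units in CKO pools, against 0.02, -0.12 and -0.07 in WT pools. CKO pools 1 and 2 were above all WT pools and CKO pool 3 was below them, so the balance of the branches did not separate the genotypes. Without CKO pool 3 the fatty acid median was 0.39 log2 units above the sterol median, without CKO pool 2 it was 0.07 above and without WT pool 3 it was 0.02 above, where it was 0.16 with all pools.

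**Figure D3:**
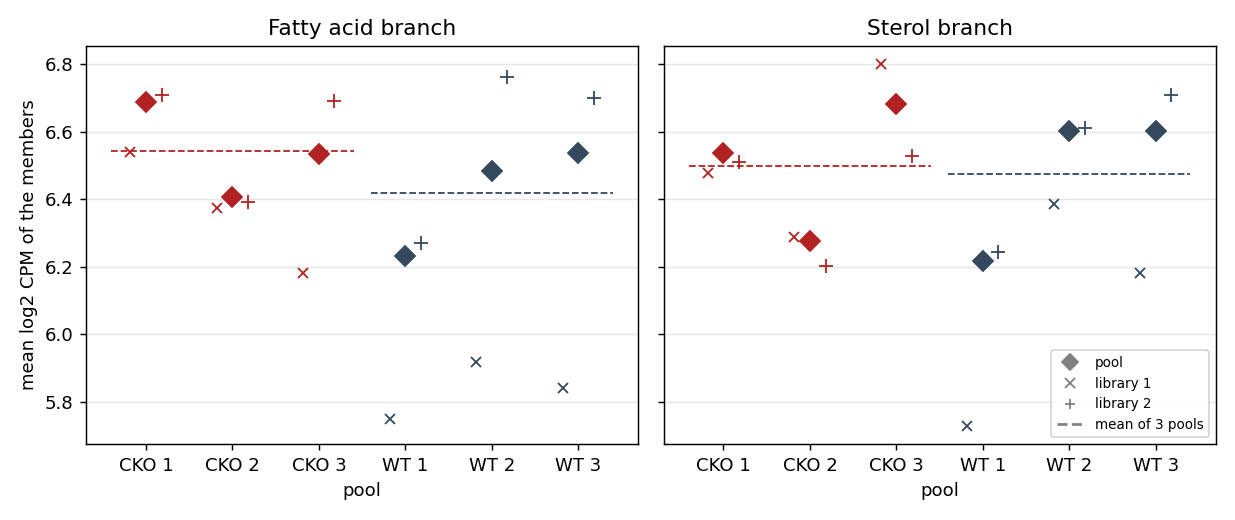
Mean log2 CPM of the members of each branch in every pool (diamonds) and in its library 1 (crosses) and library 2 (plus signs), with CKO in red, WT in dark blue and dashed lines at the mean of 3 pools. The diamonds of the genotypes overlap in both branches, WT pool 1 is the lowest diamond in both, and library 1 of all WT pools lies below library 2.

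Members of both branches also varied between pools of 1 genotype. WT pool 1 was the lowest of the 6 pools for 13 of 20 sterol genes (65%), among them Hmgcs1, Idi1, Sqle, Lss, Cyp51, Msmo1, Dhcr7, Insig1 and Srebf2, and for 6 of 15 fatty acid genes (40%). Over all genes tested that pool was the lowest for 21.2%, and over tested genes averaging at least 10 CPM for 24.7%. WT pool 3 was the highest for 8 sterol genes (40%) and 6 fatty acid genes (40%), where it was the highest for 24.5% of all genes and 30.7% of those averaging at least 10 CPM. Not all members took part, since Pmvk and Ebp of the sterol branch and Thrsp and Elovl1 of the fatty acid branch were highest in WT pool 1. These were 10% of the sterol and 13.3% of the fatty acid genes. That pool was the highest for 25% of all genes and 25.4% of those averaging at least 10 CPM. Levels in WT pools spread more than in CKO pools, with a median SD of log2 CPM of 0.30 in CKO and 0.51 in WT over the sterol genes and of 0.22 in CKO and 0.47 in WT over the fatty acid genes. That was shared by the transcriptome, where the WT SD was the larger for 73.8% of all genes, against 15 of 20 (75%) and 10 of 15 (66.7%) here. Without WT pool 1 the sterol median was -0.20 with 6 of 20 above 0, and without WT pool 3 it was 0.19 with 12 of 20 above 0. Without CKO pool 2 the sterol median was 0.09 with 12 of 20 above 0, so its sign changed with the pools included, of either genotype.

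Astrocyte markers shared their lowest pools with both branches. Their mean log2 CPM was 9.997, 9.76 and 10.3 in CKO pools 1, 2 and 3, against 9.59, 9.99 and 10.1 in WT pools 1, 2 and 3. WT pool 1 and CKO pool 2 were therefore the lowest for these markers, as for both branches, and CKO pool 3 was the highest, as for the sterol branch but not for the fatty acid branch, which was highest in CKO pool 1. Their summed level was 23890 to 36930 CPM in CKO and 24840 to 27520 CPM in WT, with no marker at 0 in any pool. The neuronal markers ran the other way, with the highest mean log2 CPM in WT pool 1 (4.78, against 2.05 to 4.18 in the other pools), 6 of 8 at 1 CPM or more in every pool, summed levels of 266 to 371 CPM in CKO and 286 to 766 CPM in WT, and none at 0. Mean log2 CPM of the oligodendrocyte markers was 6.77, 6.81 and 7.44 in CKO, against 7.30, 6.27 and 7.47 in WT, which did not follow either branch. Precursor markers stood at 7.53, 7.34 and 6.21 in CKO, against 7.10, 7.24 and 7.49 in WT, and were lowest in CKO pool 3, where the sterol branch was highest. Radial glia markers stood at 5.74, 6.00 and 6.13 in CKO, against 5.96, 5.75 and 5.04 in WT. By mean log2 CPM they were lowest in WT pool 3, which was the highest pool for 8 sterol and 6 fatty acid genes. Their summed level was lowest in WT pool 1 instead. It was 1643, 1458 and 2308 CPM in CKO, against 1363, 1440 and 1472 CPM in WT. Neuroblast, microglial and endothelial markers were also lowest in WT pool 3 by mean log2 CPM. For neuroblast markers that value (4.14) was close to WT pool 2 (4.18), and their summed level was highest in WT pool 3 (367 CPM). Summed microglial markers were lowest in CKO pool 2 (176 CPM, against 281 CPM in WT pool 3), and endothelial ones in WT pool 3 (26.6 CPM). In at least 1 pool, 1 of 8 microglial and 2 of 7 endothelial markers were at 0. Endothelial markers were scarce and highest in WT pool 1 (3.30). The part of cell composition in the branch levels was not tested.

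The libraries of 1 pool often differed by more than the genotypes. The median gap between library 1 and library 2 of the same pool was 0.59 log2 units over the fatty acid genes and 0.50 over the sterol genes, against 0.84 over all genes. Library 1 of WT pool 1 was the lowest of the 12 libraries for 17 of 35 members (48.6%), where it was the lowest for 14% of all genes and 17.4% of those averaging at least 10 CPM. In that pool Cyp51 had 24.5 CPM in library 1 and 158 in library 2, Sqle 57.8 and 238 CPM, and Hmgcs1 44.4 and 134 CPM. The same library was the highest of the 12 for 5 members (14.3%), among them Thrsp (2690 CPM, against 875 in library 2) and Pmvk (247 against 59.4). That library was the highest for 18.9% of all genes and 19% of those averaging at least 10 CPM. Single genes also differed widely between libraries, such as Tm7sf2 in WT pool 3, with 0.712 CPM in library 1 and 76.5 in library 2. The genotype difference had the same sign in both libraries for 7 of 15 fatty acid genes (46.7%) and 8 of 20 sterol genes (40%), below the 59.3% of all genes tested in both. In library 1 alone the medians were 0.45 for the fatty acid and 0.22 for the sterol branch, and in library 2 alone they were -0.03 and -0.16.

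**Figure D4:**
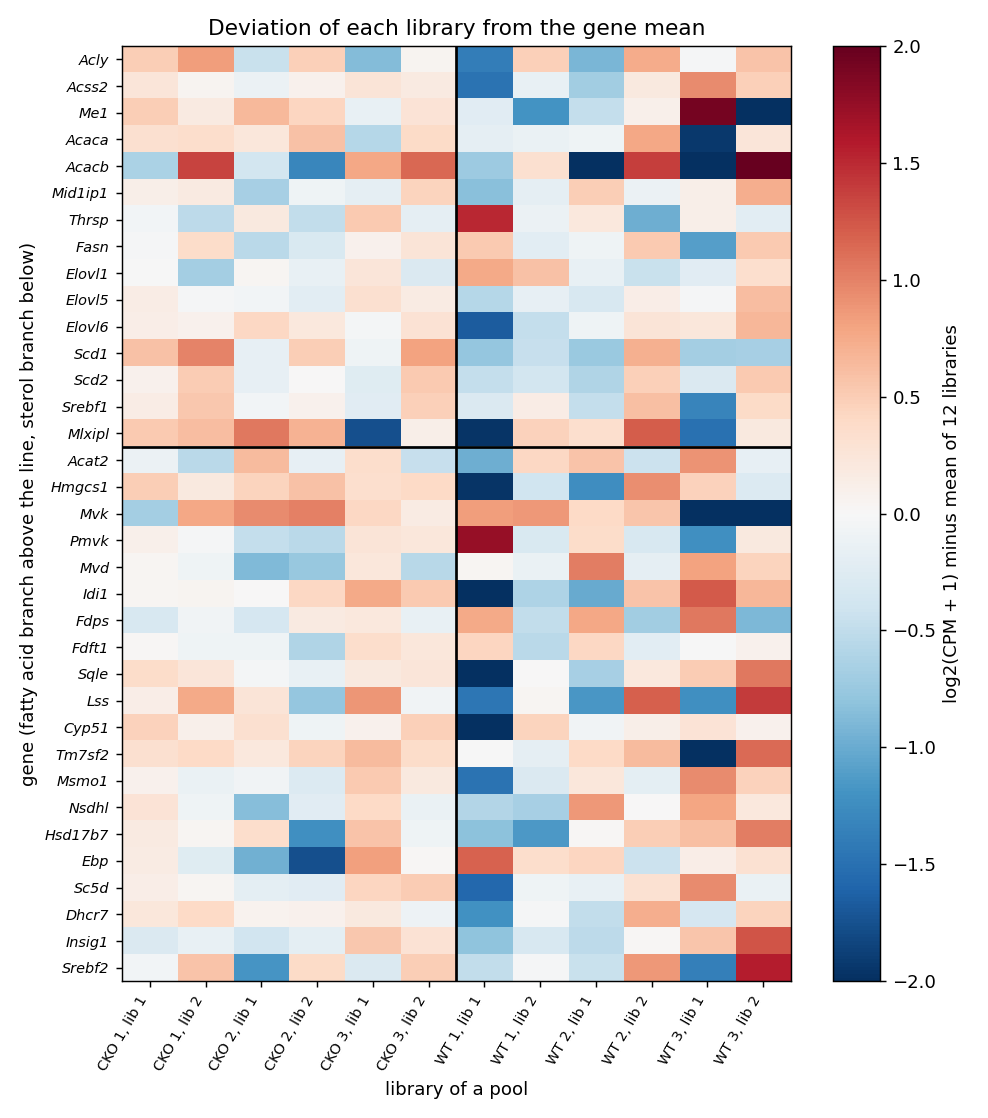
Level of each gene in each of the 12 libraries as log2(CPM + 1) minus the mean of that gene, CKO libraries left of the vertical line and WT libraries right of it, with the fatty acid branch above the horizontal line (colours end at -2 and 2). Library 1 of WT pool 1 is blue for most genes of both branches, but red for some, among them Thrsp, Elovl1, Pmvk, Ebp and Fdft1, and the CKO columns are paler.

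Further genes of the pathways gave no more calls. Of 29 other genes of fatty acid elongation, desaturation, mitochondrial synthesis, activation, binding and esterification, 28 were tested, 18 had a log2 fold change above 0 (64.3%, against 47.2% of all genes) and 0 passed the adjusted threshold in edgeR. At an unadjusted p under 0.05, 2 of 28 were higher in CKO, Elovl4 and Oxsm, and 0 lower, where 3.01% of all genes were higher and 2.9% lower. Elovl4, which makes very long chains, had 104, 97.1 and 92.2 CPM in CKO, against 58.6, 79.5 and 39.9 CPM in WT (log2 fold change 0.72, SE 0.30, edgeR adjusted p = 0.790), with 1.42 in library 1 and 0.10 in library 2. Oxsm, the mitochondrial ketoacyl synthase, was low, at 10.5, 5.90 and 7.79 CPM in CKO, against 3.11, 3.07 and 1.06 CPM in WT (1.74, SE 0.65, edgeR adjusted p = 0.790). Of 25 other genes of sterol synthesis, sensing, uptake and export, 15 were above 0 (60%), 0 passed, and 1 had an unadjusted p under 0.05. This was Erlin2, a membrane protein of the endoplasmic reticulum that takes part in turnover of sterol-regulated proteins, with 147, 148 and 122 CPM in CKO, against 72.2, 93.2 and 51.0 CPM in WT. With an SE of 0.28, its log2 fold change of 0.95 (in edgeR p = 0.0107, adjusted to 0.790) was 2.38 in library 1 and 0.48 in library 2. Among the 28 fatty acid genes, 3 had every CKO pool above every WT pool and 3 had every CKO pool below, and among the 25 sterol genes these were 2 and 1, where 7.67% of all genes were higher and 8.17% lower. Lpin1 was placed in both of these groups of further genes and is counted in each.

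Some members share sequence with other genes, which makes their counts less certain. Of the 50-base words in their transcripts, 39.1% in Acat2 (with its neighbour Acat3), 30.4% in Acaca, 26.2% in Fdps, 22.9% in Me1, 17.7% in Idi1 and 9.38% in Fdft1 also occur in a transcript of another gene. For Scd1, mostly with Scd3, and Scd2, mostly with Scd1, the shares were 4.56% and 3.97%, for Tm7sf2 9.87% with Vps51, and for Fasn, Acly, Sqle, Pmvk and Mvd they were 0%. Exons of Acss2, Elovl1, Fdft1, Lss, Hmgcs1, Idi1, Cyp51, Tm7sf2 and some other members overlap exons of neighbouring genes, and the library kit does not mark strand.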

How the data were processed

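Each of 24 tables, as deposited, lists raw read counts by gene symbol for 1 lane of 1 library. Bowtie2, HTSeq and the build GRCm38 are named in the submitters' processing notes. Their versions, the annotation and the settings are not given in the sources used here. Summary lines that name no gene were kept out: per pool they held 16% to 35.3% of reads outside genes, 2.51% to 3.43% ambiguous and 11.2% to 21.7% unaligned. No read was set aside for multiple alignment, so reads of near-identical genes may sit on any copy.

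Between the 2 lanes of each library, chi-square per degree of freedom over genes was 0.981 to 1.01, which is sampling noise, and between the 2 libraries of a pool it was 75.9 to 376. All 4 tables of a pool were summed, n = 3 pools per genotype. The test between genotypes was that of edgeR 4.0.16, run in R 4.3.3 (filterByExpr, TMM, robust quasi-likelihood F test, Benjamini-Hochberg over 21477 genes, threshold 0.05). CPM use TMM-adjusted library sizes, log2 CPM a prior count of 2, and 1 read was worth 0.0175 to 0.0265 CPM. Without molecular identifiers, depth bears on counting error alone. The biological coefficient of variation was 0.725. The fits were tested on simulated data. Single values had an exact permutation test. Alternatives were size factors, no filter, DESeq2 1.42.0, a replicate block, each library alone, enzymes only, means for medians, and leaving out each pool. Positions and exon lengths are from GENCODE M21 (GRCm38), promoters from RefSeq.

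All members are named. Values in every pool are given for those with an unadjusted p under 0.05 or without overlap of the pools, and for Fasn, Acaca, Acly, Scd2, Sqle, Lss, Dhcr7, Srebf1, Srebf2, Mlxipl and Insig1, and of the others for some, chosen after their values were seen. The members and lists were chosen with earlier results of these data known.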

Additional observations from a re-analysis of the deposited data

How the results depend on the processing

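With every alternative 0 of the 35 members passed the adjusted threshold. Across all genes, 0 passed in every edgeR fit and 124 with DESeq2. Pool numbers did not pair the pools (deviations of same-numbered pools correlated at 0.0559, 0.0218 and -0.028), and with the pool number as a replicate block 0 genes passed and the sterol median was 0.0121. Branch medians were 0.452 (fatty acid) and 0.224 (sterol) in library 1 alone, and the fatty acid median was -0.0268 in library 2 alone. With 1 pool left out, the sterol median ran between -0.203 and 0.185, and the fatty acid minus sterol median between 0.0221 and 0.394. Of 35 members, 8 kept the sign of their log2 fold change in every alternative and 27 did not in at least 1. The cause was not tested. The sign turned in library 1 alone for Me1 (-0.454), Acacb (2.11), Msmo1 (0.00106), Hsd17b7 (0.357), Insig1 (0.154) and Srebf2 (0.293). It turned in library 2 alone for Acly (-0.12), Acss2 (-0.0936), Elovl5 (-0.248), Elovl6 (-0.0216), Srebf1 (-0.0268), Mlxipl (-0.243), Pmvk (0.0314), Fdps (0.701), Fdft1 (0.0723), Sqle (-0.381), Lss (-0.905), Cyp51 (-0.0563), Tm7sf2 (-0.224) and Dhcr7 (-0.282). Msmo1 was 0.0132 without a filter and 0.0524 with the block.

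With 1 pool left out, 22 members turned. In the fatty acid branch the log2 fold change ran between -0.167 and 0.377 for Acly, -0.11 and 0.502 for Acss2, -0.00045 and 0.752 for Me1, -0.744 and 0.316 for Acacb, -0.282 and 0.0656 for Mid1ip1, -0.501 and 0.138 for Thrsp, and -0.198 and 0.0768 for Fasn. It ran between -0.48 and 0.0095 for Elovl1, -0.0198 and 0.25 for Elovl5, -0.0384 and 0.51 for Elovl6, and -0.0438 and 0.884 for Mlxipl. In the sterol branch it ran between -0.18 and 0.987 for Mvk, -0.665 and 0.0954 for Pmvk, -0.104 and 0.864 for Idi1, -0.184 and 0.0982 for Fdft1, -0.179 and 0.51 for Sqle, and -0.228 and 0.243 for Lss. It ran between -0.262 and 0.33 for Msmo1, -0.477 and 0.277 for Hsd17b7, -0.0508 and 0.337 for Sc5d, -0.427 and 0.355 for Insig1, and -0.424 and 0.0388 for Srebf2. In the pools, 3 reads were worth 0.0526 to 0.0795 CPM, below the level of every member in every pool.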
